A study of Mus musculus with 18 samples.

Results

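Of the 54446 genes in the deposited table, 8 encode factors that guide the eosinophil lineage, and their transcripts were followed through 6 culture conditions. They were listed by name, with earlier results of these data known, and each was found as 1 row by its Ensembl identifier. The set holds the zinc finger factors Gata1 and Gata2, the C/EBP factors Cebpa, Cebpb and Cebpe, the ETS factor Spi1, which encodes PU.1, and the regulators Id2 and Trib1. All 8 passed the filter on low values, set at 10 normalized counts on average in the libraries fitted.

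Eosinophils arise in the bone marrow from myeloid progenitors in which GATA and C/EBP factors are expressed together with a low to moderate dose of PU.1. C/EBP-alpha opens the granulocyte programme, GATA-1 and GATA-2 divert it toward eosinophils, and C/EBP-epsilon drives the late granule genes. Id2 sequesters E proteins, and Trib1 is an adaptor that brings C/EBP-alpha to the COP1 ubiquitin ligase for degradation. C/EBP-beta is also known outside development, as a factor that granulocytes and macrophages use under infection and cytokine exposure.

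The eosinophils came from the peritoneal cavity of Il5Tg (NJ.1638) mice, whose transgene makes interleukin-5 in excess, and the labels give the strain as C57BL/6. T and B cells were depleted with beads, apoptotic cells (ACs) were added at 5 per eosinophil for 18 h, and anti-Siglec-F beads were used to purify the eosinophils a second time. The ACs were wild-type thymocytes killed with dexamethasone. The Type 1 experiment had 4 groups: ACs alone, and ACs with E. coli, with IFN-γ, or with the 2 combined. The paper describes the combination as IFN-γ followed by E. coli. The IL-4 experiment had ACs alone and IL-4 + ACs, and each of the 6 groups had 3 libraries, 18 in all. Every group contained ACs, so a stimulus named below was always given with them, and each stimulus was compared with the ACs of its own experiment, so no value here describes an eosinophil that had not met apoptotic cells. The doses of the stimuli and the age of the eosinophil donors were not given in the sources used here. The methods call the replicates biological, and whether they came from separate mice was not given for every group in the sources used here, so the p-values measure the spread between these libraries.

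Libraries were made by CEL-Seq2, which reads the 3' ends of transcripts, and values are counts divided by a size factor per library (normalized counts). Between 779421 and 7782072 reads were counted on genes per library, with a median of 4461120. Replicate 3 of both groups of the IL-4 experiment had the lowest depth, and 1 read stood for normalized counts of 5.14 (IL-4) and 5.36 (ACs) there. The eosinophil label was checked against 9 markers. Siglecf, Ccr3 and Alox15 were at 1514 or more in every library, whereas the granule gene Epx was at 3.27 or below in the Type 1 libraries and at 25.7 or below in the others. Of the remaining markers, Ear6 ranged from 336 to 8689, Il5ra from 102 to 455 and Prg2 from 57.5 to 270 over the libraries. Ear1 (2.45 to 77.1) and Ear2 (0 to 257) came near 0 in some of them. Macrophage markers were also present, with a sum over 10 genes of 5090 to 28210 per library. Bulk RNA does not separate fewer cells of a type from less RNA per cell.

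The genes lie on 7 chromosomes of the GRCm38 assembly. Gata1 (ENSMUSG00000031162.14) spans 7959260 to 7978071 on the minus strand of chromosome X and Gata2 (ENSMUSG00000015053.14) spans 88193891 to 88207032 on the plus strand of chromosome 6. Cebpa (ENSMUSG00000034957.10, chromosome 7, 35119293 to 35121928, plus strand) is overlapped by the antisense gene Gm45091, which had a normalized count of 0 in every library. Cebpb (ENSMUSG00000056501.3, chromosome 2, 167688915 to 167690418, plus strand) is overlapped by Tmem189 on the other strand. Whether the counting used strand was not given in the sources used here, and Tmem189 itself ranged from 378 to 1865. Cebpe (ENSMUSG00000052435.7) lies on chromosome 14 from 54710360 to 54712174 on the minus strand, and Spi1 (ENSMUSG00000002111.8) on chromosome 2 from 91082390 to 91115756 on the plus strand. Id2 (ENSMUSG00000020644.9) lies on chromosome 12 from 25093799 to 25097140 on the minus strand, and Trib1 (ENSMUSG00000032501.9) on chromosome 15 from 59648350 to 59657099 on the plus strand.

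RefSeq promoter windows of GRCm38.p6 were matched for 5 of the 8 genes, with 2 start sites for Gata2. The 250 bases before the start site are shown for 4 genes that moved in different directions under IFN-γ + E. coli, Gata1 and Cebpb upward and Cebpa and Id2 downward. Each is written 5' to 3' on the strand of its gene. Capitals mark exact matches, on either strand, to 3 core promoter motifs, the TATA box (TATAAA), the box named CCAAT after its letters and the GC box (GGGCGG), which were chosen after the sequences were seen.
Gata1, chrX:7967911-7968160, - strand: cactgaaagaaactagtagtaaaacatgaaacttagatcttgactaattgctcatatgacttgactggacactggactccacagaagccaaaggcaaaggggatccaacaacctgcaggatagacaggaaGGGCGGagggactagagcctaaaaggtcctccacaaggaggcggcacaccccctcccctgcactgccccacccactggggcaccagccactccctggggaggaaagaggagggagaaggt
Cebpa, chr7:35119043-35119292, + strand: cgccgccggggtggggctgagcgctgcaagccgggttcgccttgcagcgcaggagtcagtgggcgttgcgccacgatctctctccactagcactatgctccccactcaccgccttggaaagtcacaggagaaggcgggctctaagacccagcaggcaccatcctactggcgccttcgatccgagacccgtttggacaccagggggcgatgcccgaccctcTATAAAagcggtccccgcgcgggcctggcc
Cebpb, chr2:167688665-167688914, + strand: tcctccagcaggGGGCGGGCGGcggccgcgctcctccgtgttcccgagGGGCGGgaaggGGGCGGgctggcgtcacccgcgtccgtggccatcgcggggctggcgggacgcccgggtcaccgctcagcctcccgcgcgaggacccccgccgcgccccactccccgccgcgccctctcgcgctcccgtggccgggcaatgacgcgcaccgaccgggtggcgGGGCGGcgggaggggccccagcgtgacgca
Id2, chr12:25096093-25096342, - strand: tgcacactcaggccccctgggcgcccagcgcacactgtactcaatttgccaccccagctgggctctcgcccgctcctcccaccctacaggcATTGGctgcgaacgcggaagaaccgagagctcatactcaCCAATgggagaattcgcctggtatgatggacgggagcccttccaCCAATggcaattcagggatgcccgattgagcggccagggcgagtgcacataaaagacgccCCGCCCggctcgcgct
The Cebpa window holds a TATA box that begins 30 bases before the start, and neither of the other motifs. Cebpb has 5 GC boxes, 2 of which overlap, and no TATA box before its start, Id2 has 3 CCAAT boxes and 1 GC box, and Gata1 has 1 GC box in the stretch shown. In windows of 300 bases, which add 50 bases after the start, the TATA box occurred in 13.6%, the CCAAT box in 37.4% and the GC box in 35.7% of 32851 promoters. The windows also differed in composition, from 57.3% G and C with 4 CG pairs in Gata1 to 80.7% with 50 CG pairs in Cebpb. Motifs of the lineage factors themselves and of the STAT factors that interferon and IL-4 receptors use were searched in the same 300-base windows, on both strands. The GATA motif (AGATAA, or with T in place of the first base) occurred in 18.6% of all promoters, the C/EBP motif (TTGCNNAA) in 10.8%, the ETS motif (GAGGAAG) in 13.6%, the STAT motif (TTCNNNGAA) in 8.3% and the STAT6 motif, which has 1 more base in the gap, in 6.95%. None of these motifs had an exact match (0) in the 6 windows of the lineage factors.

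Cebpa had the largest fall of the 8 factors with E. coli, with both Type 1 stimuli and with IL-4, whereas with IFN-γ alone the largest fall was that of Id2. The threshold was a Benjamini-Hochberg adjusted p under 0.05 in limma, over all genes tested, together with a change of at least 1.5-fold. With E. coli, 2 of 8 factors passed (Trib1 higher, Cebpa lower), against 10.3% of all genes tested. With IFN-γ, 3 of 8 passed (Gata2, Cebpe and Id2, all lower), against 21.4% of all genes in either direction and 9.96% lower. With IFN-γ + E. coli, 5 of 8 passed, against 31.9% of all genes. Gata1, Cebpb and Trib1 were higher, a direction taken by 14.7% of genes, and Cebpa and Id2 lower, a direction taken by 17.2%. With IL-4, 1 of 8 passed (Cebpa, lower), against 1.09% of all genes. The median log2 fold change of the 8 factors was 0.42, -0.30, -0.205 and -0.025 in these 4 comparisons, beside medians between -0.05 and 0 over all genes tested.

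Without regard to the test, the 3 values with E. coli lay entirely above those of ACs for 5 factors and below for 2, beside 38.3% of all genes with ranges apart in either direction. With IFN-γ 1 factor lay above and 3 below (42.9% of all genes), with IFN-γ + E. coli 3 above and 3 below (48.8%), and with IL-4 0 above and 1 below (17.3%).

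**Figure D1:**
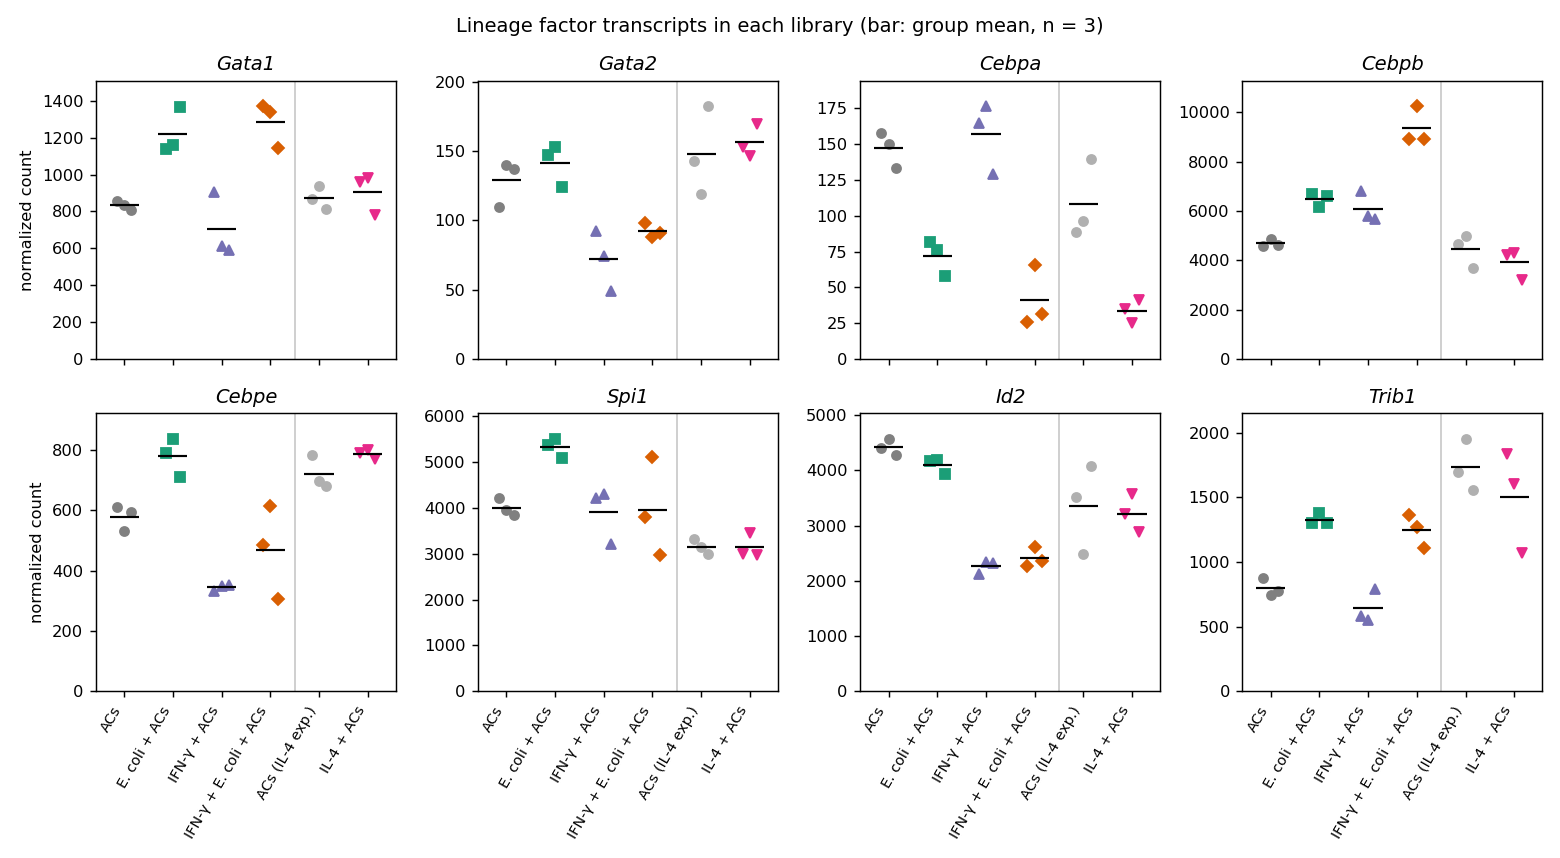
Normalized counts (y axis, from 0) of the 8 lineage factors in the 18 libraries, with 1 point per library, a bar at the mean of each group of 3 and a vertical line between the Type 1 experiment (left) and the IL-4 experiment (right). Cebpa sits between 25.3 and 66.0 with IFN-γ + E. coli and with IL-4, below every library with ACs alone (88.7 to 158), and Cebpb with IFN-γ + E. coli lies at 8923 or more, higher than in any other group.

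Gata1 encodes the factor without which eosinophils are not formed. Its normalized counts were 858, 833 and 808 with ACs, 1136, 1158 and 1363 with E. coli, 908, 614 and 591 with IFN-γ, and 1369.9, 1336 and 1142 with IFN-γ + E. coli. All 6 libraries that received E. coli were above all 6 that did not. The rise with both stimuli was 1.53-fold (log2 fold change 0.62, SE 0.14, adjusted p 0.0022), and the difference with E. coli alone was 1.46-fold (log2 0.54, SE 0.14, adjusted p 0.016), short of the 1.5-fold threshold. The difference with IFN-γ alone was -0.27 on the log2 scale (adjusted p 0.18). Ordered by mean, the groups ran from IFN-γ + E. coli (1283) and E. coli (1219), which did not differ by the test (adjusted p 0.76), to ACs (833) and IFN-γ (704). With IL-4 the counts were 962, 980 and 781, overlapping the 869, 940.4 and 815 of ACs (log2 0.05, adjusted p 0.93).

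Gata2, an earlier GATA factor of progenitors that mast cells and basophils keep expressing, was lower with IFN-γ. It stood at 109.8, 139.8 and 137 with ACs and at 92.3, 74.5 and 49.3 with IFN-γ, with no overlap. This fall was 1.83-fold (log2 -0.87, SE 0.21, adjusted p 0.0048). E. coli gave 147, 153 and 124, overlapping the ACs values (log2 0.14, adjusted p 0.77). With both stimuli the counts were 98.4, 88.0 and 91.1, all under those of ACs, with a log2 difference of -0.47 and an adjusted p of 0.091. IL-4 (153, 146 and 169.6) and its ACs (143, 119 and 182) overlapped. Mast cell and basophil markers were examined beside Gata2. Of 10 such genes, Mcpt8 stayed under 3 reads in every library, Mcpt4, Kit, Fcer1a and Ms4a2 were at 10.3 or below, and the summed level (203 to 286 with ACs, 277 to 347 with IFN-γ, 661 to 769.8 with both) was carried by Hdc, which encodes histidine decarboxylase. Hdc alone was at 597 to 719.9 with both stimuli and 195 to 264 with ACs. The mast cell protease genes were lower in count but not flat. Cpa3 had means of 4.07 with ACs, 25.4 with IFN-γ and 31.3 with both, and Cma1 of 1.98, 9.93 and 9.32, while Tpsb2 and Tpsab1 had group means of at most 11.5 and 5.67. Of the 2 markers that passed the filter on low values, 1 rose with IFN-γ and 2 with both, and their part in the level of Gata2 was not tested.

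The share of Gata2 relative to Gata1 within a library also shifted. The log2 ratio was lower by 0.60 with IFN-γ and by 1.09 with IFN-γ + E. coli than with ACs, and in both cases the ranges of the 3 libraries were apart. With E. coli (-0.41) and IL-4 (0.05) the ranges overlapped. These ratios carry no test.

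Cebpa, the C/EBP factor of early granulocyte commitment, was the one factor past the threshold with IL-4 and one of those past it with E. coli. Its counts were 158, 150.2 and 134 with ACs, 82.0, 76.0 and 58.1 with E. coli, 165, 177 and 129 with IFN-γ, and 25.7, 66.0 and 31.7 with IFN-γ + E. coli. The groups with E. coli did not overlap those without it. Cebpa fell 2.05-fold with E. coli (log2 -1.03, SE 0.27, adjusted p 0.015) and 3.81-fold with both stimuli (log2 -1.93, SE 0.27, adjusted p 1.5e-05), whereas IFN-γ alone gave a log2 difference of 0.08 (adjusted p 0.86). The call with E. coli was lost when replicate 1 or 2 of ACs or replicate 3 of E. coli was left out, with adjusted p of 0.06, 0.053 and 0.081 respectively.

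In the IL-4 experiment Cebpa was at 88.7, 96.5 and 139 with ACs and at 34.8, 25.3 and 41.1 with IL-4. Every IL-4 library lay below every ACs library, a 3.14-fold fall (log2 -1.65, SE 0.29, adjusted p 0.027). The shallow replicate 3 libraries rested on 26 reads (ACs) and 8 reads (IL-4). Without both of them the log2 change was -1.61 (adjusted p 0.0015). Leaving out 1 library at a time kept the direction, with log2 changes between -1.81 and -1.46, but the adjusted p rose to between 0.056 and 0.099 unless the library left out was IL-4 replicate 3, where it was 0.039. The change with IL-4 and the change with IFN-γ + E. coli were not told apart by their test (difference 0.28 on the log2 scale, interval of about 2 SE from -0.52 to 1.08, adjusted p 0.67).

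Macrophages express Cebpa, and their markers moved in some of these comparisons. The summed count of 10 macrophage markers was 12530 to 16320 with ACs, 5090 to 6644 with E. coli, 19460 to 28210 with IFN-γ and 6098 to 6665 with both. Most of it came from C1qc and C1qb, with means of 8319 and 2580 beside a mean sum of 14640 with ACs. Csf1r had means of 1170, 843, 1053 and 888 in the same order of groups. By gene, 6 of 10 fell with E. coli, 4 rose and 1 fell with IFN-γ, and 2 rose and 6 fell with both. The 3 genes whose levels were most like that of Cebpa over the 12 Type 1 libraries, among 6747 compared, were the complement gene C1qa (r = 0.96), the lysosomal membrane gene Cd68 (r = 0.95) and Trf (r = 0.95), which encodes transferrin. Those r values describe libraries that share their groups and have no test. Gata6, the GATA factor of large peritoneal macrophages, had a mean of 143 ± 38.4 (SD, n = 3) with ACs, 90.0 ± 10.1 with E. coli and 36.2 ± 10.2 with both. The part of macrophage RNA in the changes of Cebpa was not tested.

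Cebpa was also set beside these markers in the other comparisons. With IFN-γ the marker sum lay above that of ACs in every library, where Cebpa overlapped ACs. Between E. coli and IFN-γ + E. coli the marker sums overlapped, and the markers went both ways. C1qa (229.9 ± 27.9 and 106 ± 39.9) and Gata6 were lower with both stimuli, with ranges apart, and Marco (513 and 1247) and Mertk (193 and 387) were higher. Cebpa was 1.86-fold lower with both stimuli than with E. coli (log2 -0.90, SE 0.27, adjusted p 0.021), although its ranges overlapped and the call was lost without any 1 of 4 of the 6 libraries (adjusted p up to 0.11). In the IL-4 experiment the marker sums overlapped between IL-4 (14680 to 24710) and ACs (18390 to 27600), where the Cebpa ranges were apart. Past the threshold were 2 of 10 markers, both lower. Marco was 129 to 190 with IL-4 and 795 to 1265 with ACs, and Vsig4 was 341 to 473 and 694 to 1458. Timd4 went the other way, at 195 to 196 with IL-4 and 81.2 to 150 with ACs. The ranges of the other markers overlapped.

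**Figure D2:**
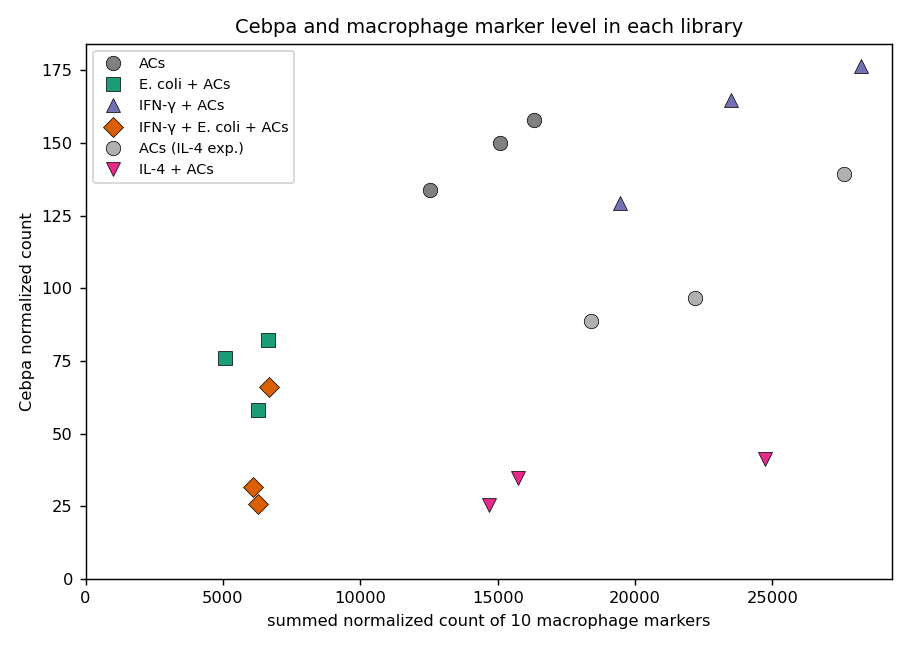
Cebpa normalized count (y axis) against the summed normalized count of 10 macrophage markers (x axis), with 1 point per library and a symbol per group. C1qc and C1qb make up most of the sum. The libraries with E. coli lie at the lower left, and the 3 IL-4 libraries lie at 25.3 to 41.1 for Cebpa with marker sums of 14680 to 24710, under ACs libraries of the same experiment with sums of 18390 to 27600.

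Cebpb, the C/EBP factor of acute responses, rose where Cebpa fell under E. coli and IFN-γ together. The counts were 4564, 4851 and 4641 with ACs, 6701, 6175 and 6592 with E. coli, 6815, 5791 and 5697 with IFN-γ, and 8932, 10246 and 8923 with both. Each of the 3 stimulated groups lay above the ACs libraries, and the group with both lay above the rest. Cebpb rose 2.00-fold with both (log2 1.00, SE 0.10, adjusted p 3.1e-07). With E. coli alone (log2 0.47, adjusted p 0.0039) and with IFN-γ alone (log2 0.38, adjusted p 0.0099) the difference was under 1.5-fold. The overlapping gene Tmem189 was also lowest with ACs and highest with both, at 378 to 407 for ACs, 628 to 758 for E. coli, 1059 to 1127 for IFN-γ and 1523 to 1865 for both, and how reads were shared between the genes was not tested. With IL-4, Cebpb stood at 4223, 4305 and 3218, overlapping the 4673, 4990.3 and 3710.1 of its ACs (log2 -0.19, interval of about 2 SE from -0.50 to 0.12, adjusted p 0.73).

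Cebpe, which drives the late granule programme, fell with IFN-γ. ACs gave 612, 532 and 594 and IFN-γ gave 332, 349.6 and 353, a tight group well under the controls. The fall was 1.67-fold (log2 -0.74, SE 0.18, adjusted p 0.0041). With E. coli the counts of 789, 837 and 709.9 all exceeded those of ACs, with a log2 difference of 0.43 and an adjusted p of 0.13. The 3 libraries with both stimuli were widely spread, at 486, 613 and 306, and overlapped the ACs values (log2 -0.36, adjusted p 0.12). With IL-4 the counts of 789, 800.4 and 771 overlapped the 782, 698 and 681 of ACs (log2 0.13, adjusted p 0.77).

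Within libraries the balance of Cebpb and Cebpa transcripts moved toward Cebpb with E. coli, with both Type 1 stimuli and with IL-4. The log2 ratio of Cebpb to Cebpa was higher than with ACs by 1.502 with E. coli, by 2.93 with both stimuli and by 1.46 with IL-4, each with ranges apart. IFN-γ gave a difference of 0.29, and its range of 5.03 to 5.45 overlapped the 4.85 to 5.11 of ACs. Under IL-4 the shift came with a fall of Cebpa, while Cebpb did not pass the test. These are ratios of bulk RNA, and the parts of macrophage RNA and of Tmem189 reads in them were not tested.

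**Figure D3:**
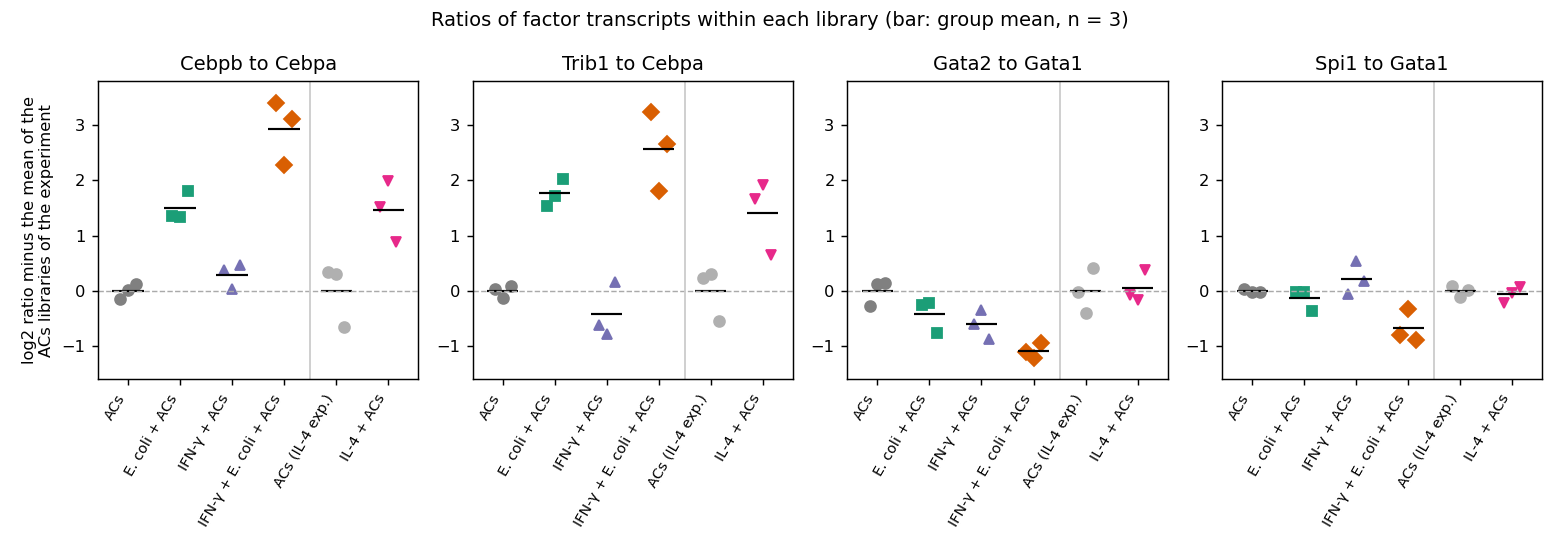
Log2 ratio of 4 pairs of factor transcripts within each library, minus the mean of the ACs libraries of the same experiment (y axis), with 1 point per library and a bar at the mean of 3. The mean ratio of Cebpb to Cebpa lies 1.502 (E. coli), 2.93 (IFN-γ + E. coli) and 1.46 (IL-4) above ACs, and that of Gata2 to Gata1 lies 1.09 below ACs with both stimuli.

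Spi1, which encodes PU.1, did not pass the threshold with any stimulus. Its counts were 4218, 3940 and 3841 with ACs, 5353, 5499.6 and 5088 with E. coli, 4205, 4290.3 and 3197 with IFN-γ, and 3803, 5108 and 2961 with both. The E. coli libraries lay above the ACs libraries (log2 0.41, SE 0.15, adjusted p 0.087), and the other groups overlapped them. In the IL-4 experiment the counts of 2981, 3449.7 and 2976 overlapped the 3318, 3144 and 2992 of ACs. The difference there was -0.01 on the log2 scale, with an interval of about 2 SE from -0.24 to 0.22 (adjusted p 0.99). The log2 ratio of Spi1 to Gata1 was lower by 0.67 with both stimuli, with ranges apart, and overlapped ACs in the other groups (-0.13, 0.22 and -0.06 with E. coli, IFN-γ and IL-4).

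Id2, the inhibitor of E proteins, separated the libraries by IFN-γ. It stood at 4399, 4572 and 4286 with ACs and at 4166, 4196 and 3927 with E. coli, and dropped to 2117, 2349 and 2321 with IFN-γ and to 2269, 2612 and 2352 with both. All 6 libraries with IFN-γ were below all 6 without it. The fall was 1.95-fold with IFN-γ (log2 -0.97, SE 0.10, adjusted p 3.7e-07) and 1.84-fold with both (log2 -0.88, SE 0.10, adjusted p 8.6e-07), and these groups did not differ from each other by the test (adjusted p 0.56). With E. coli all 3 libraries lay below those of ACs, but the log2 difference was -0.11 (adjusted p 0.53). The sum of 9 eosinophil markers was 10000 to 11250 with IFN-γ, under the 16330 to 17750 of ACs. With both it was 14440 to 17090, overlapping ACs, where Id2 was 2269 to 2612. Alox15 was its largest part, with a mean of 9408 of 17170 with ACs and 8106 of 15890 with both. By gene, of 7 tested, 4 fell with IFN-γ and 2 with both, and 0 rose in either. Siglecf was 1728 to 2020 with both and 3169 to 3367 with ACs, while Ccr3 was 4005 to 4934 and 3211 to 3385. The part of the eosinophil marker level in the falls of Gata2, Cebpe and Id2 was not tested. IL-4 gave 3202, 3565 and 2878 beside 3523, 2487 and 4075 with ACs, with full overlap (log2 -0.04, adjusted p 0.96).

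Trib1, the adaptor that targets C/EBP-alpha, rose with E. coli and with both Type 1 stimuli, and did not pass the test with IL-4. The counts were 878, 747 and 777 with ACs, 1303, 1376 and 1305 with E. coli, 582, 556 and 792 with IFN-γ, and 1363, 1269 and 1112 with both. All libraries with E. coli exceeded all those without. Trib1 rose 1.66-fold with E. coli (log2 0.73, SE 0.13, adjusted p 0.00085) and 1.56-fold with both (log2 0.64, SE 0.13, adjusted p 0.00087), and with IFN-γ the difference was -0.33 (adjusted p 0.074). IL-4 gave 1833, 1601 and 1069 beside 1699, 1954 and 1560.2 with ACs, which overlapped (log2 -0.24, adjusted p 0.73). The log2 ratio of Trib1 to Cebpa was higher by 1.76 with E. coli, 2.57 with both and 1.41 with IL-4, with ranges apart, and lower by 0.41 with IFN-γ, with overlap. C/EBP-alpha protein was not measured here, and a link between the Trib1 and Cebpa transcripts was not tested.

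The rises of Gata1 and Trib1 with both stimuli stood close to the 1.5-fold threshold. When libraries were rescaled to a common upper quartile, which moved the median of all genes by -0.14 in this comparison, the log2 changes were 0.48 and 0.50 (adjusted p 0.013 and 0.0055) and fell short of it. The same happened without replicate 1 of IFN-γ + E. coli, with 0.57 for each.

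**Figure D4:**
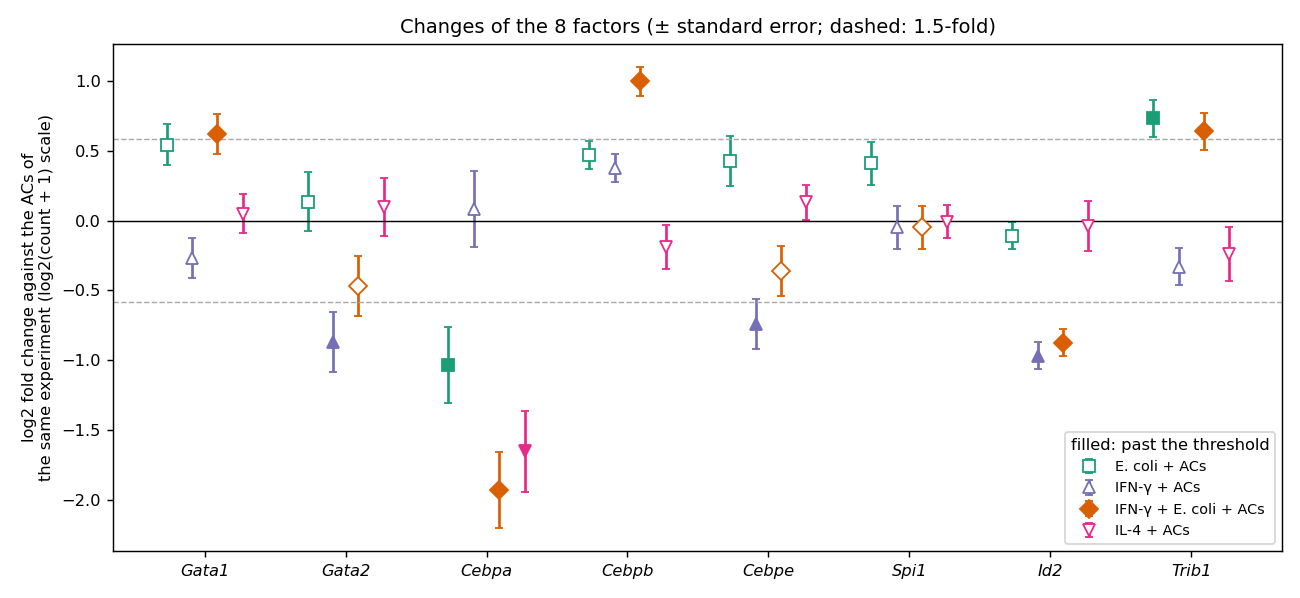
Log2 fold changes (y axis, from log2 of the normalized count plus 1, ± standard error) of the 8 factors with each stimulus against the ACs of the same experiment, n = 3 libraries per group. Filled symbols passed the threshold, and dashed lines mark 1.5-fold. Cebpa falls by 1.93 with IFN-γ + E. coli and by 1.65 with IL-4, and Id2 falls by 0.97 with IFN-γ and by 0.88 with both.

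The stimulated groups of the Type 1 experiment were also compared with each other. These comparisons share libraries with those above. IFN-γ and E. coli differed in 6 of 8 factors, against 16.6% of all genes. Gata1 was 1.76-fold, Gata2 2.0-fold, Cebpe 2.25-fold, Id2 1.81-fold and Trib1 2.09-fold lower with IFN-γ (adjusted p 0.00038, 0.0019, 8.2e-05, 2.4e-06 and 8.3e-06), and Cebpa was 2.17-fold higher (adjusted p 0.0055). With IFN-γ + E. coli, 4 of 8 factors were lower than with E. coli alone, against 19.4% of all genes in either direction. They were Cebpe by 1.72-fold (adjusted p 0.0033), Id2 by 1.70-fold (adjusted p 1.1e-05), Cebpa, given above, and Gata2 by 1.52-fold (adjusted p 0.045). The call for Gata2 was lost under 11 of 21 alternatives, among them a pseudocount of 5, no filter on low values and the loss of any 1 of 9 libraries, with adjusted p of at most 0.13. The call for Cebpe was lost without replicate 3 of the group with both (log2 -0.51, adjusted p 0.012).

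Adding E. coli to IFN-γ moved 4 of 8 factors, against 14.6% of all genes. Gata1 rose 1.85-fold (adjusted p 0.00025), Trib1 rose 1.957-fold (adjusted p 5e-05) and Cebpb rose 1.54-fold (adjusted p 0.00029), and Cebpa fell 4.03-fold (adjusted p 3.9e-05). The call for Cebpb was lost on rescaling to a common upper quartile (log2 0.57) and without replicate 2 or 3 of IFN-γ or replicate 2 of the group with both, where the log2 change was 0.55 to 0.59.

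A departure from additive effects of IFN-γ and E. coli on the log2 scale was tested as an interaction, without a fold threshold. It was past the threshold for 0 of 8 factors in limma, against 7.76% of all genes, with 1 of 8 at an unadjusted p under 0.05 and 0 in edgeR and DESeq2. That factor was Cebpa, which was lower with both stimuli than the sum of the single changes by 0.98 (SE 0.38, adjusted p 0.13). With array weights its adjusted p was 0.036, and without replicate 2 of IFN-γ + E. coli, the library with the highest Cebpa of that group, it was 0.0073. Spi1 gave -0.41 (SE 0.22, adjusted p 0.27) and -0.61 (adjusted p 0.036) without the same library.

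The response to IL-4 was compared with the response to IFN-γ + E. coli by the difference of the 2 log2 changes, each against its own ACs. It passed for 3 of 8 factors, against 21.3% of all genes. Cebpb differed by -1.18 (SE 0.18, adjusted p 5.5e-05), Trib1 by -0.88 (SE 0.23, adjusted p 0.01) and Id2 by 0.84 (SE 0.19, adjusted p 0.0032), so Cebpb and Trib1 were relatively lower and Id2 relatively higher with IL-4. Gata1 gave -0.57 (adjusted p 0.053). The experiment cannot be told apart from the group here except through the ACs of each, and their levels stood apart for some factors. Trib1, for example, had a mean of 801 ± 68.7 with ACs in the Type 1 experiment, and 1738 ± 199.7 with ACs in the other (SD, n = 3), a difference that was not tested.

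Relatives and partners of the 8 factors were taken as 7 lists, with 76 genes in all. Of 61 tested in the Type 1 experiment, 8 rose and 2 fell with E. coli (16.4%), 5 rose and 13 fell with IFN-γ (29.5%), and 14 rose and 9 fell with both (37.7%). With IL-4, 4 of 66 rose and 0 fell (6.06%). Those counts stand beside 10.3%, 21.4%, 31.9% and 1.09% of all genes.

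Among 7 other C/EBP and BATF family genes, Batf2 rose 8.03-fold with IFN-γ (adjusted p 4.3e-06) and 5.59-fold with both (adjusted p 2.6e-05), Ddit3 rose 2.00-fold with IFN-γ, and Batf3 fell with IFN-γ (log2 -1.35, adjusted p 0.036). The fall of Batf3 was at a low level, from 30.7 ± 5.035 with ACs to 14.2 ± 12.5, and its ranges overlapped. Batf3 was the member of this list that rose with IL-4, 2.41-fold, from 50.8 ± 2.48 to 124 ± 11.2 (adjusted p 0.02). Of 8 GATA relatives and cofactors tested, Lyl1 and Nfe2, both transcription factors of blood progenitors, fell 2-fold or more with IFN-γ (log2 -1.09 and -1.08, adjusted p 0.001 and 0.00027), the direction of Gata2. Trps1 rose with IFN-γ (log2 1.49, adjusted p 0.017), and with both stimuli Lyl1 (log2 -0.82) and Gata6 (log2 -1.96) fell while Lmo2 rose.

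The ETS list with PU.1 partners had 11 genes tested. Irf8, which steers myeloid cells toward monocytes, rose 5.92-fold with IFN-γ (adjusted p 2.1e-07) and 2.04-fold with both (adjusted p 0.0027). Spic, the PU.1 relative of red pulp macrophages, rose with E. coli (log2 1.85, adjusted p 0.0034) and IFN-γ (log2 1.43, adjusted p 0.011) from a low level of 8.89 ± 4.16. Ikzf1 fell with IFN-γ (log2 -1.06, adjusted p 6.5e-05) and with both (log2 -0.66, adjusted p 0.0036). With both stimuli 4 of the 11 rose and 1 fell, and with E. coli 3 rose. With IL-4, Etv3 rose 2.21-fold, from 539 ± 26.5 to 1193 ± 72.8 (adjusted p 0.0018), while Spi1 did not pass the test.

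Of 5 Id and E protein genes tested besides Id2, Id1 was past the threshold. It fell in the same comparisons as Id2, with log2 changes of -1.20 with IFN-γ (adjusted p 5e-05) and -1.30 with both (adjusted p 1.3e-05) and values of -0.11 with E. coli and 0.05 with IL-4 that did not pass. Of the Tribbles and COP1 ligase genes, Det1, a subunit of the ligase, fell with IFN-γ (log2 -1.07, adjusted p 0.028) at a mean of 37.2 ± 8.36 with ACs. Among 12 other granulocyte regulators tested, Gfi1, a transcriptional repressor needed for neutrophil development, rose with E. coli (2.23-fold, adjusted p 0.013) and with both (3.15-fold, adjusted p 0.00022). Ikzf2 fell with each of the 3 Type 1 stimuli, by 1.56, 1.08 and 1.00 on the log2 scale (adjusted p 0.00032, 0.0038 and 0.0048). Runx3 rose 2.07-fold with both (adjusted p 9.2e-05), and Myb fell with both from 18.9 ± 8.26 to 3.93 ± 3.55 (adjusted p 0.014), which is about the level of 3 reads.

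Eosinophil genes known as targets of these factors did not move as 1 group. Of 13 tested in the Type 1 experiment, 3 rose and 1 fell with E. coli, 5 fell with IFN-γ, and 3 rose and 2 fell with both. Those that fell with IFN-γ, where Gata2, Cebpe and Id2 fell, were Ear6, Il5ra, Siglecf, Alox15 and Il1rl1. The shared beta chain genes Csf2rb and Csf2rb2 rose with E. coli (2.08-fold and 1.88-fold, adjusted p 1.3e-06 and 3.6e-06) and with both (2.44-fold and 2.94-fold, adjusted p 1.8e-08 and 6e-10), as Gata1 did with both. Ear6, an eosinophil ribonuclease gene, rose 2.83-fold with E. coli (adjusted p 1.6e-07), fell with IFN-γ (log2 -0.93, adjusted p 1.8e-05) and rose 1.88-fold with IL-4, from 4515 ± 1011 to 8328 ± 318 (adjusted p 0.03). Ear2 rose 4.36-fold with IL-4, from 54.7 ± 24.9 to 223 ± 29.5 (adjusted p 0.017), and fell with both Type 1 stimuli together from 26.4 ± 5.73 to 2.14 ± 1.91 (adjusted p 0.00019), under the level of 3 reads. Ear genes are near-identical copies, and the methods describe counting of uniquely mapped reads only, so reads shared by copies may be left out.

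For 5 factors past the threshold in the Type 1 experiment, the 3 genes with the closest pattern were taken by Pearson's r over the 12 libraries, among 6747 genes with a mean of at least 50. They were Bloc1s4, Acap1 and Mboat7 for Gata1 (r = 0.94 to 0.96) and Xpo6, Acot9 and Gm42462 for Cebpb (0.96 to 0.97). Cebpe was closest to Fndc5, Paqr7 and Coro1a (0.95 to 0.96), Id2 to Igkc, Rab29 and Cbfa2t3 (0.96 to 0.97), and Trib1 to Prkcb, Mmp25 and Tes (0.94 to 0.96). Among the factors themselves r was 0.84 for Gata1 with Trib1, -0.79 for Cebpa with Trib1, -0.77 for Cebpa with Cebpb, and 0.80 for Id2 with both Gata2 and Cebpe. The points share their 4 groups, and these values are given without a test.

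Other cell types were followed through their markers because several of the 8 factors are not restricted to eosinophils. Of 10 neutrophil markers, 5 were tested in the Type 1 experiment, of which 3 rose with E. coli, 3 rose with IFN-γ, and 4 rose and 1 fell with both. S100a8 was 254 to 383 with E. coli and 39.2 to 56.3 with ACs. Cxcr2, a chemokine receptor gene, had means of 52.0 with ACs, 332 with E. coli, 62.9 with IFN-γ and 196 with both, and S100a9 of 2.17, 42.4, 14.5 and 26.0. The granule genes Elane and Mpo, which progenitors express, were at 0 in all 9 stimulated Type 1 libraries. The neutrophil sum was 2313 to 2599 with E. coli, 2023 to 2536 with IFN-γ, 1127 to 1421 with both and 1609 to 1902 with ACs, and most of it came from Retnlg, which had a mean of 1665 with ACs and 923 with both. Of 8 erythroid and megakaryocyte markers, which bear on Gata1, Klf1 and Gp9 stayed under 3 reads in every library, while the platelet genes Pf4 (573 to 3886) and Itga2b (808.5 to 1543) were present in all. Of 5 tested in the Type 1 experiment, 3 rose with E. coli, 2 rose and 1 fell with IFN-γ, and 1 rose and 1 fell with both. Haemoglobin transcripts were present, with Hba-a1 at 722 to 959 with ACs, 1368 to 2178 with E. coli, 1995 to 3272 with IFN-γ and 590.1 to 2102 with both, and at 134 to 348 in the IL-4 experiment. Hba-a1 was above ACs in every library with E. coli, where Gata1 was above ACs, and with IFN-γ, where Gata1 overlapped ACs. Ppbp, another platelet gene, had a mean of 27.1 with ACs and 75.8 with E. coli. Thymocyte markers, which could mark the ACs, summed to 45.5 to 178 and B cell markers to 12.03 to 89.9 per library. By group the B cell sum was 40.65 to 51.4 with ACs, 51.9 to 89.9 with E. coli, 13.2 to 34.9 with IFN-γ and 17.1 to 55.0 with both. The part of these transcripts in the changes of the 8 factors was not tested.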

How the data were processed

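RNA of peritoneal mouse eosinophils cultured with apoptotic cells was sequenced in 18 libraries, 3 per group. The values the authors deposited are a signal, the read number of each gene scaled by the size factor of its library (DESeq2), with no other normalization. The submitters' processing notes name FastQC 0.11.5, Trim Galore, cutadapt 1.10, TopHat2 2.1.0, Bowtie2 2.2.6, HTSeq 0.6.1, DESeq2 1.26.0 and the build GRCm38. The methods also describe another alignment pipeline, and which one made this table was not given in the sources used here. The 2 ACs groups were assigned to their experiments by the naming of the labels. Whole reads were recovered from the values as multiples of the value of 1 read, for 99.7% to 100.0% of the values of a library within a tolerance of 0.01 normalized counts. Reads on genes ranged from 779421 to 7782072 per library. Levels at or under 3 reads, a normalized count of 15.42 and 16.08 in the shallow libraries of the IL-4 experiment, cannot be told from 0. These limits cover counting error only.

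Comparisons were fitted with limma 3.58.1 (lmFit, then eBayes with a trend, R 4.3.3) on log2(normalized count + 1) for genes with a mean of at least 10, on the 12 libraries of the Type 1 experiment, the 6 of the IL-4 experiment, or all 18 for the difference between them. P-values are two-sided and were adjusted by Benjamini-Hochberg over all genes tested, and the fold changes, on the log2(value + 1) scale, understate the change of low genes. The fold threshold was not used for the interaction and for the difference between experiments. Alternatives were edgeR 4.0.16 and DESeq2 1.42.0, both run on recovered reads, array weights, scaling to a common upper quartile, the replicate number as a block, a pseudocount of 5, a minimum mean of 50 or of anything above 0, 1 fit to all 18 libraries, no fold threshold and each library left out. Leaving out both shallow libraries was added after the data were seen. Replicate numbers come from the titles. Residuals of same-numbered libraries of different groups correlated between -0.09 and 0.09, so the numbers were not taken as pairs. The 8 genes and all lists were chosen with earlier results of these data known. Named genes were the 8 factors, up to 4 genes per list with the largest change among those past the threshold, and the 3 closest in pattern. Sequences are from RefSeq (GRCm38.p6) and positions from GENCODE M21 on GRCm38. The fits were tested on simulated data. Summaries and figures used pandas 2.3.3, numpy 2.4.6 and matplotlib 3.10.9 in Python 3.11.15. The genes closest in pattern to Gata2 and 1 cell type marker are not reported here.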

Additional observations from a re-analysis of the deposited data

Results flagged for a closer look

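For 3 of the 8 factors the change with IL-4 + ACs and the change with IFN-γ + E. coli + ACs, each against the ACs of its own experiment, differed by a test of the difference itself (limma over all 18 libraries, Benjamini-Hochberg adjusted over all genes tested). Cebpb changed by -0.19 with IL-4 and by 1.00 with IFN-γ + E. coli on the log2 scale, a difference of -1.185 (adjusted p 5.5e-05). Id2 changed by -0.04 and by -0.88, a difference of 0.836 (adjusted p 0.0032). Trib1 changed by -0.24 and by 0.64, a difference of -0.879 (adjusted p 0.01). Each difference kept its direction and its call under the 27 alternatives run for it, and 21.3% of all genes passed the same test. The stimulus and the experiment in which it was used cannot be told apart beyond the ACs libraries of each.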

How the results depend on the processing

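Over the 8 factors and all comparisons, 1469 values under an alternative kept their side of the threshold (32 of them, none past it and of main size at most 0.097, had the other sign), 33 lost a call and 18 gained one, and no called value changed sign. The number of factors past the threshold moved with E. coli + ACs to 4 without a fold threshold (Gata1 and Cebpb in addition), with IL-4 + ACs to 0 with the replicate number as a block (Cebpa, log2 -1.65, adjusted p 0.054), and for the interaction to 1 with array weights. The 10.3% of all genes given for E. coli was counted with the fold threshold, so it is no background for those 4. Without a fold threshold the number also rose from 3 to 4 for IFN-γ + ACs (Cebpb in addition). It rose from 4 to 6 for IFN-γ + E. coli + ACs against E. coli + ACs, and from 6 to 7 for IFN-γ + ACs against E. coli + ACs. The shares of all genes given for these comparisons were likewise counted with it. Leaving out 1 library gave 1 to 3 factors for E. coli + ACs, 3 to 5 for IFN-γ + E. coli + ACs, 1 to 4 for IFN-γ + E. coli + ACs against E. coli + ACs, 0 to 2 for the interaction and 0 to 1 for IL-4 + ACs. The block changed 1 other call, that of Gata1 in the difference between experiments (adjusted p 0.049). Same-numbered libraries were the closest in 11 of 36 comparisons of the Type 1 experiment and 0 of 6 of the IL-4 experiment. With a common upper quartile, Gata2 passed with IFN-γ + E. coli + ACs (log2 -0.61, adjusted p 0.03), and the median of all genes moved by -0.14 in that comparison, -0.11 against E. coli + ACs and 0.13 in the difference between experiments. Gata1 passed in that difference under 10 of 27 alternatives, edgeR and DESeq2 among them. For IL-4 + ACs the number of all genes past the threshold was 116, and 74 with the block, 208 without a filter, 745 with array weights, 212 in edgeR, 209 in DESeq2, 221 with all 18 libraries and 656 without both shallow libraries. Leaving out 1 library gave 47 to 130, the fewest without IL-4 + ACs replicate 1. The count of all genes with an interaction fell from 789 to 507 with all 18 libraries and to 401 without E. coli replicate 1. Depth limits Cebpa most, at 8 to 194 reads per library.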

Other observations

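For 3 of the 8 factors the spread between replicates was widest in the group with both Type 1 stimuli. The coefficient of variation there was 52.8% for Cebpa, 32.9% for Cebpe and 27.3% for Spi1, beside 8.34%, 7.2% and 4.89% with ACs, and 7.41% for Id2 and 5.78% for Gata2. Replicate 2 held the highest value of the group for Cebpa, Cebpb, Cebpe, Spi1 and Id2. It also had the most haemoglobin transcripts of its group, with Hba-a1 at 2102 beside 590.1 and 1116, while its summed macrophage markers (6665) lay close to those of the other replicates (6276 and 6098). Hdc, which encodes histidine decarboxylase, rose beside the fall of Cebpa with IL-4, with 164 to 273 for ACs and 487 to 709 for IL-4 + ACs.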
